A study of Mus musculus with 11 samples.

Results

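The regions described here were the broad peaks of open chromatin outside promoters in mouse haematopoietic stem cells (HSCs): all peaks at least 1200 bp wide that the authors' annotation places in intergenic DNA away from genes ("Distal Intergenic") or in an intron. Of 94410 peaks in all, 2155 met this rule (2.28%), 1262 of them distal intergenic and 893 intronic. The rule used width and annotation, not accessibility in any group, so changes between groups could be read from the tests. The assay was ATAC-seq: the Tn5 transposase cuts and tags exposed DNA, so that reads pile up over open regions. There were 11 libraries of HSCs purified from bone marrow, taken at steady state from mice of the genotype Gfplc3/Gfplc3, an allele for a fusion of GFP to the autophagosome protein LC3. The groups were 5 libraries of young HSCs, which were unfractionated, 3 of old HSCs with low GFP, named AThi for high autophagy, and 3 of old HSCs with high GFP, named ATlo. All groups carry the reporter. The old fractions were each set against young HSCs and against one another.

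Some limits hold for every value below. Age in numbers, sex and the number of animals behind a library are not given in the labels, so a p-value reflects only the spread of these particular libraries, which may be technical. Cells were isolated and transposed on 2 days, and the day of each library is not given, so that age, day and GFP sorting cannot be told apart in the comparisons with young HSCs. Both of those comparisons use the same 5 young libraries, and their values are therefore given side by side and not counted as independent. In a bulk library, fewer cells with an open region and less opening per cell cannot be told apart. The tables hold no value per library, so levels are given per group, as implied by the mean over the 11 libraries and the deposited fold changes. The read depth behind each library is unknown.

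Distal and intronic open regions include enhancers, stretches of DNA where transcription factors bind and displace nucleosomes and from which they act on promoters that can lie far away. In HSCs, factors such as Runx1, Gata2, Erg, Fli1 and Meis1 are known to bind large numbers of such sites together. A wide open region may hold several factor binding sites or adjoining elements. Enhancer activity, histone marks and factor binding were not measured here, so the regions are called broad non-promoter peaks.

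The broad non-promoter peaks were 1200 to 2864 bp wide, with a median of 1348 bp, against a median of 485 bp for the 63263 narrower peaks of the same annotation. They made up 3.29% of all distal and intronic peaks, whereas 37.9% of the peaks within 1 kb of a start site (6862 peaks) were as wide. Their mean normalised count, the reads in a peak after scaling for library size and averaged over libraries, had a median of 134.3 (quartiles 85.1 and 211.8, range 20.24 to 800.1). The narrower distal and intronic peaks had a median of 20.4. Per kb of peak the medians were 97.0 and 41.8, so the broad peaks also had a higher density of reads. They covered 4.89% of the bases in peaks and held 5.9% of the normalised counts.

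The broad peaks lay 3004 to 864900 bp from the nearest annotated start site, with a median distance of 25930 bp. Upstream of the assigned start were 1023 of them, and downstream 1132. Of the 893 in introns, 327 were in a first intron and 566 in a later one, and for 297 the intron belonged to another gene than the one with the nearest start. The 2155 peaks were assigned to 1846 genes, of which 1583 had 1 such peak, 225 had 2 and 38 had 3 or more. Another broad non-promoter peak lay within 100 kb of 792 of them and within 10 kb of 109.

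The widest broad peak was a distal one of 2864 bp on chromosome 10 (12742558 to 12745421, mm39), 5.08 kb upstream of Utrn, which encodes the dystrophin relative utrophin. The next was a peak of 2557 bp in intron 2 of Rai1, a nuclear regulator of transcription, nearest to Mir6921. Distal peaks of the predicted gene Gm35888 (2547 bp), named here although predicted genes were otherwise passed over, of Lncppara (2519 bp) and of Dapk1, a death-associated kinase (2439 bp), came next. Log2 changes of these 5 peaks in the authors' deposited tables lay between -0.34 and 0.23 against young HSCs, and none passed the test in either comparison.

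The peak with the most reads lay on chromosome 8 (84923992 to 84925519), 9.63 kb upstream of Mir23a, a microRNA gene, and had a mean normalised count of 800.1, or 523.6 per kb. Distal peaks of Zfp958, a zinc finger gene (774 in all, 450 per kb), Foxj2, a forkhead factor (772, 428 per kb), and Klf9, a Krüppel-like factor (732, 311 per kb), and a peak in intron 2 of Agpat3 assigned to Mir7659 (698, 578 per kb) followed, per the authors' deposited tables. At the Klf9 peak on chromosome 19 (23111345 to 23113702), 4.89 kb upstream of the start, the implied levels were 800 in young, 760 in old AThi and 591 in old ATlo HSCs. Against young, ATlo was at -0.44 on the log2 scale (SE 0.13, adjusted p = 0.017) and AThi at -0.07 (SE 0.13, adjusted p = 0.803) per the authors' deposited tables. The difference between AThi and ATlo at this peak, 0.36 on the log2 scale (SE 0.15, unadjusted p = 0.0122) per the authors' deposited table, did not pass after adjustment. The Klf9 call was lost when the median change of the strongest promoters was set to 0 (log2 -0.13) and when changes were centred on peaks of like level (-0.13). The Zfp958 peak fell in ATlo (log2 -0.50, SE 0.16, adjusted p = 0.0269, per the authors' deposited table), a call also lost under both settings (-0.19 and -0.20).

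Old AThi HSCs differed from young HSCs at 282 of the broad non-promoter peaks at an adjusted p under 0.05: 155 were higher (7.19%) and 127 lower (5.89%). Among all 94410 peaks, 7.42% were called higher and 2.69% lower, so the share of higher calls was near that of all peaks, and the share of lower calls was above it. Calls with at least a 2-fold change numbered 29 higher and 7 lower among the 2155 broad peaks, against 4616 and 1025 among all 94410 peaks. The median log2 change was 0.74 among higher and -0.58 among lower broad peaks, against 1.21 and -0.85 for called peaks of all kinds. Peaks of all kinds had far lower counts (median 27.5). Called narrower distal and intronic peaks with counts between the broad peaks' quartiles had medians of 0.74 and -0.64, close to those of the broad peaks. Over all broad peaks the median log2 change was -0.03 (quartiles -0.24 and 0.22), against -0.04 over all peaks.

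The split of calls by direction depended on the scaling. Of the broad peaks called in old AThi HSCs 55.0% were higher, against 73.4% for all peaks, 79.5% for narrower distal and intronic peaks and 45.9% for promoter peaks of at least 1200 bp. Setting the median log2 change of all peaks to 0, a shift of 0.04, gave 194 higher and 94 lower broad peaks (67.4% higher). Setting that of the 1811 strongest promoters to 0, where it had been -0.22 in AThi and -0.31 in ATlo, gave 426 higher and 32 lower (93.0%). Centring on the median of peaks of like mean count gave 211 higher and 67 lower (75.9%). All peaks were at 80.0%, 94.0% and 78.6% under these 3 settings, so the broad peaks lay 1.0 to 12.6 points below them there, against 18.4 points as deposited. In counts, 7762, 12631 and 7288 of all 94410 peaks were higher and 1941, 802 and 1982 lower.

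In old ATlo HSCs, 144 of the broad non-promoter peaks were higher than in young HSCs (6.68%) and 109 lower (5.06%), where 6.75% and 2.49% of all peaks were called. Of the 2155 broad peaks, 21 were called higher and 3 lower with at least a 2-fold change, against 4154 and 530 of all 94410 peaks. The medians were 0.74 among the higher and -0.53 among the lower broad peaks, and -0.03 over all broad peaks. The share of calls that were higher was 56.9%, against 73.0% for all peaks, 85.6% for narrower distal and intronic peaks and 24.5% for promoter peaks of at least 1200 bp. It was 66.1% with the median of all peaks set to 0, 98.5% with the strongest promoters set to 0 and 88.8% after centring on level. All peaks were at 79.8%, 98.2% and 84.7%, so the broad peaks lay below all peaks with the median of all peaks at 0, and above them under the other two settings. Under the 3 settings, in the same order, 158, 610 and 215 broad peaks were higher and 81, 9 and 27 lower. Among all 94410 peaks, 6862, 16007 and 6400 were higher and 1742, 296 and 1153 lower. After centring on level, the share of broad peaks called lower (1.25%) was thus near that of all peaks.

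The wide peaks were measured more precisely than most. The median SE of the log2 change between old AThi and young HSCs was 0.183, against 0.334 over all peaks, and the 95% interval (normal approximation from the SE) lay within a 2-fold change in both directions for 1926 broad peaks (89.4%), against 47.9% of all peaks. For old ATlo HSCs the interval lay within 2-fold for 91.9% of the broad peaks. This precision was not particular to them. Narrower distal and intronic peaks with counts between the broad peaks' quartiles had a median SE of 0.189 in AThi. Of those narrower peaks, 87.9% lay within 2-fold in AThi and 91.1% in ATlo. Promoter peaks of at least 1200 bp had a median SE of 0.164 in AThi, with 94.7% within 2-fold.

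**Figure D1:**
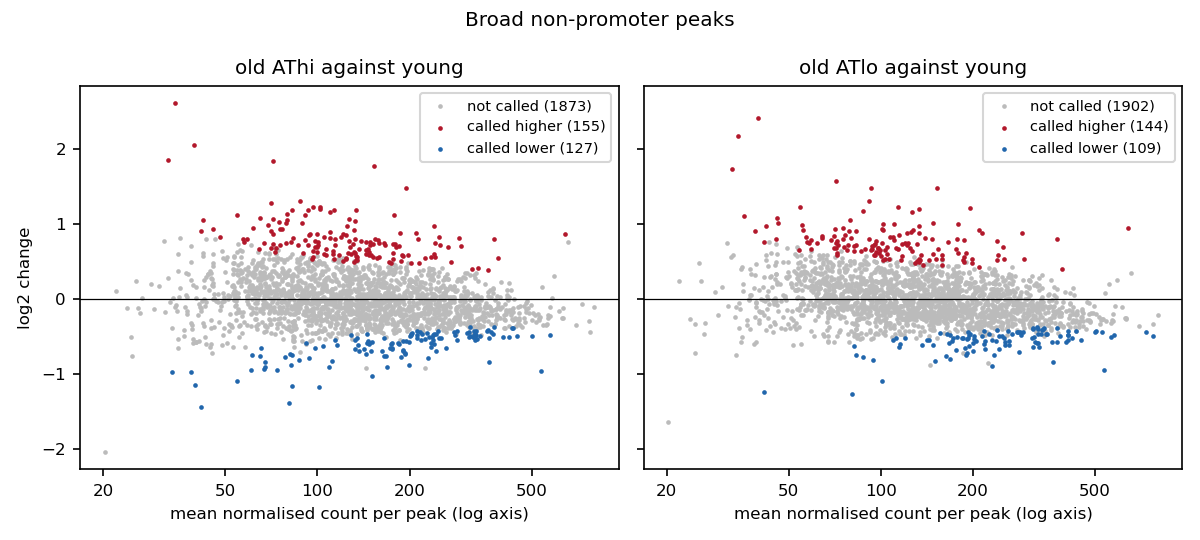
Log2 change against young HSCs of the 2155 broad non-promoter peaks (vertical axis) by mean normalised count per peak (horizontal log axis), for old AThi (left) and old ATlo HSCs (right); each point is 1 peak, coloured by the authors' call at an adjusted p under 0.05. Higher calls (155 and 144) lie mostly at counts under 200, and lower calls (127 and 109) reach further to the right.

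Direction went with level. The broad peaks called higher in old AThi HSCs had a median mean normalised count of 124.3 and those called lower one of 194.0, and in old ATlo HSCs the medians were 103.4 and 243.2. In the lowest quartile group of count, 6.68% were higher and 3.53% lower in AThi, and in the highest 3.71% were higher and 10.0% lower. For ATlo the same groups gave 8.53% higher and 0.742% lower at the low end, and 2.04% higher and 12.2% lower at the high end. Narrower distal and intronic peaks within the same 4 ranges of count went the same way: from 10.6% higher and 2.46% lower to 3.19% and 5.01% in AThi, and from 9.97% and 1.36% to 2.05% and 7.74% in ATlo. In the lowest range the narrower peaks had a median count of 34.4, against 64.3 for the broad ones, so levels there were not alike. The difference between broad and narrower peaks at a given level was not tested. In the middle range of level, between the quartiles of the broad peaks, 11.3% of 4065 narrower peaks were higher and 4.43% lower in AThi.

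**Figure D2:**
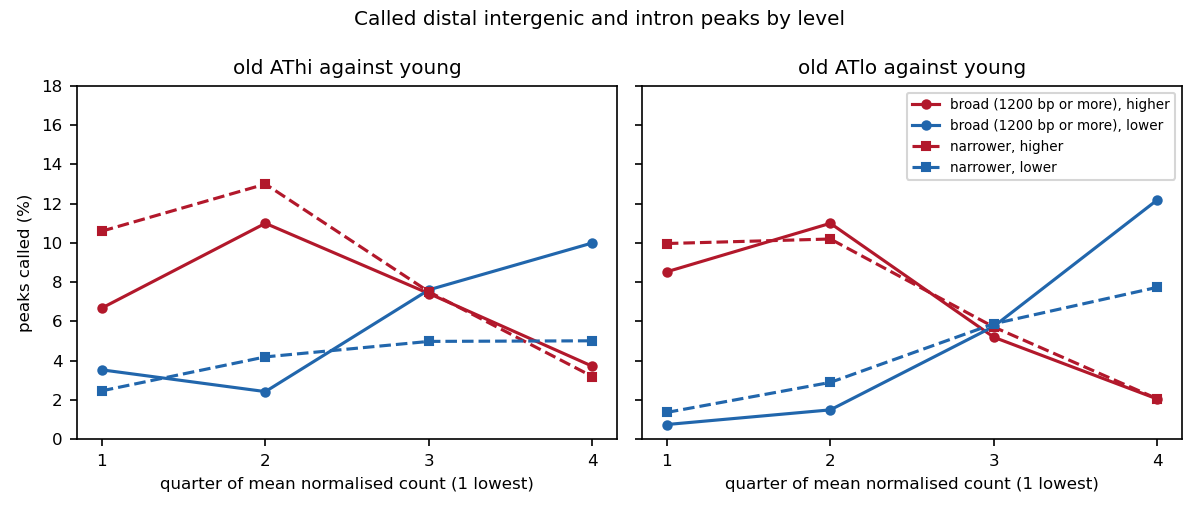
Share of distal intergenic and intronic peaks called higher (red) or lower (blue) than young HSCs, in percent, by quartile group of the broad peaks' mean normalised count (1 lowest), for old AThi (left) and old ATlo HSCs (right); solid lines are broad peaks and dashed lines narrower peaks within the same ranges of count. Lower calls rise from 3.53% to 10.0% of broad peaks in AThi and from 0.742% to 12.2% in ATlo between the lowest and the highest group.

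Direction also went with distance from the nearest start site, which itself goes with level. Of the 422 broad peaks within 10 kb of a start, 22 were higher and 31 lower in old AThi HSCs, and 22 and 41 in old ATlo HSCs. Of the 245 peaks at 100 kb or more, 24 were higher and 9 lower in AThi, and 24 and 4 in ATlo. Median mean normalised counts were 154.2 for the near and 122.2 for the far peaks, and the part of level in the split by distance was not tested. By width, 67 of 804 peaks of 1200 to 1299 bp were higher and 44 lower in AThi, and 25 of 488 peaks of 1500 to 1999 bp were higher and 35 lower. In ATlo these groups had 65 higher and 20 lower, and 18 higher and 27 lower. Their median mean normalised counts were 109.6 and 186.6, and the part of level in the split by width was not tested. Distal intergenic and intronic broad peaks were called higher in like shares in AThi (7.13% and 7.28%), while 6.58% and 4.93% were called lower. In ATlo 6.02% and 7.61% were higher, and 5.94% and 3.81% lower. At the border of the rule, the 33 broad peaks within 3 bp of the minimum width had log2 changes in AThi from -0.76 to 0.57 (median 0.06), and the 24 peaks that fell short of it by up to 3 bp from -0.84 to 1.86 (median -0.08).

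Predicted genes aside, the higher calls with the smallest p lay at Tmem114, Aopep, Hdac9 and Lin28b in AThi and at Tmem114, Podxl, Cmip and Treh in ATlo. A distal peak of 1227 bp on chromosome 16 (7745538 to 7746764), 496 kb downstream of the start of Tmem114, a gene for a transmembrane protein, had implied levels of 71.2 in young, 243 in old AThi and 198 in old ATlo HSCs. Old AThi HSCs were thus 3.41-fold higher (log2 1.77, SE 0.18, adjusted p = 1.52e-19) and old ATlo HSCs 2.78-fold higher (log2 1.48, SE 0.18, adjusted p = 2.24e-13) per the authors' deposited tables. The promoter peak of Tmem114 rose as well, with log2 changes of 1.74 (SE 0.23) in AThi and 1.64 (SE 0.23) in ATlo in the authors' deposited tables.

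The largest fold change in AThi was inside Aopep, an aminopeptidase gene (chromosome 13, 63364471 to 63365722, intron 11), where implied levels were 10.2 in young, 62.4 in AThi and 46.1 in ATlo HSCs. The authors' deposited tables gave 6.10-fold (log2 2.61, SE 0.34) for AThi and 4.51-fold (log2 2.17, SE 0.35) for ATlo. Hdac9 encodes a class IIa histone deacetylase. In its intron 2, on chromosome 12 (34956396 to 34957823), the implied levels were 106, 294 and 245 in young, AThi and ATlo HSCs, a rise of 2.79-fold (log2 1.48, SE 0.20) and 2.33-fold (log2 1.22, SE 0.20) by the authors' deposited tables. A second broad peak in Hdac9, in intron 3, was at 110, 125 and 151 and did not pass in either comparison.

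Lin28b encodes an RNA-binding protein that blocks maturation of let-7 microRNAs and is known for its role in fetal HSCs. A peak 15.5 kb upstream of it on chromosome 10 (45361783 to 45363152) rose from an implied 63.8 in young to 146 in AThi and 121 in ATlo HSCs, with log2 changes of 1.20 (SE 0.18) and 0.93 (SE 0.18) in the authors' deposited tables. Its promoter peak was not called, at -0.62 (SE 0.34, adjusted p = 0.261) and -0.46 (SE 0.32, adjusted p = 0.421) in the same tables. Podxl, a sialomucin related to CD34, had a peak of 2078 bp on chromosome 6 (31494286 to 31496363), 44.5 kb downstream of its start, with implied levels of 202 in young, 356 in AThi and 370 in ATlo HSCs. That is a log2 change of 0.82 (SE 0.13) and 0.87 (SE 0.13) per the authors' deposited tables, while the Podxl promoter stayed at -0.12 (SE 0.17) and -0.09 (SE 0.16) and did not pass.

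Spry4, an inhibitor of receptor tyrosine kinase signalling, had a peak 57.8 kb downstream of its start on chromosome 18 (38675050 to 38676628), which rose from 66.4 in young to 151 in AThi and 155 in ATlo HSCs (log2 1.18, SE 0.20, and 1.23, SE 0.19, in the authors' deposited tables). The Spry4 promoter did not pass (-0.14, SE 0.16, and -0.17, SE 0.16). In intron 1 of Fam163a on chromosome 1 (155983664 to 155984893) the rise was from 82.7 to 189 and 162, and its promoter also rose (log2 1.02, SE 0.20, for AThi and 0.93, SE 0.20, for ATlo per the authors' deposited tables). Ehd3, an ATPase of endosomal recycling and a known marker of aged HSCs, had a peak 70.3 kb downstream of its start on chromosome 17 (74182089 to 74183450) that rose from 142 to 262 and 268. Its log2 changes of 0.88 (SE 0.16) in AThi and 0.92 (SE 0.16) in ATlo stood beside promoter changes of 0.85 (SE 0.16) and 0.69 (SE 0.16) in the authors' deposited tables. Tmem114, Fam163a and Ehd3 were thus cases in which a broad peak and the promoter rose in both old fractions.

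The other higher peaks with the smallest p in 1 or both comparisons lay in intron 1 of Nckap5, intron 20 of Phldb1 (assigned to Treh, trehalase), 105 kb upstream of Gse1, in intron 1 of Cmip, in intron 13 of Vac14 (assigned to Mtss2) and in intron 1 of Elf2, an ETS transcription factor. Their log2 changes in the authors' deposited tables ran from 0.70 (Elf2) to 1.16 (Nckap5) in AThi and from 0.69 (Gse1) to 1.20 (Mtss2) in ATlo, and all 6 passed in both. The Mtss2 promoter rose in AThi (0.75, SE 0.16) and not in ATlo (0.20, SE 0.16, adjusted p = 0.519) per the authors' deposited tables. The peak of Sgcd, a sarcoglycan gene, on chromosome 11 (47878938 to 47880286), singled out after its values were seen, had the largest rise in ATlo: 2.41 on the log2 scale (SE 0.51, adjusted p = 1.06e-04) and 2.05 (SE 0.51) in AThi per the authors' deposited tables. Its implied levels were 13.1, 54.1 and 69.4.

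**Figure D3:**
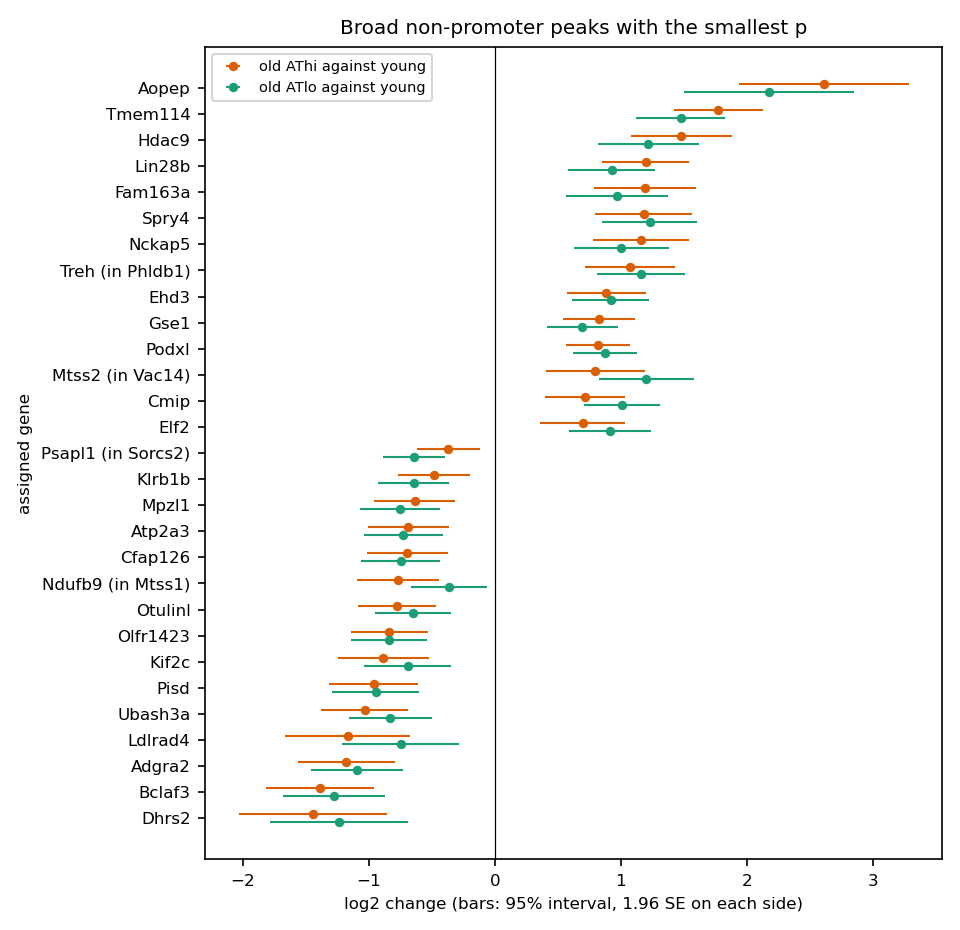
Log2 change against young HSCs (horizontal axis, bars 95% intervals) in old AThi (orange) and old ATlo HSCs (green) of the broad non-promoter peaks with the smallest p, named by assigned gene and, in brackets, the gene whose intron holds the peak. Both fractions lie on the same side of 0 at each peak, from Aopep (2.61 and 2.17) to Dhrs2 (-1.44 and -1.24).

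The lower peak with the smallest p in both comparisons lay on the X chromosome (158291244 to 158292569), 23.1 kb upstream of Bclaf3, with implied levels of 120 in young, 45.9 in AThi and 49.6 in ATlo HSCs. Log2 changes were -1.39 (SE 0.22, adjusted p = 2.97e-08) for AThi and -1.27 (SE 0.21, adjusted p = 1.15e-07) for ATlo, per the authors' deposited tables. The sex of the mice is not given, and the 29 broad peaks on the X chromosome had a median log2 change of -0.27 in AThi and -0.11 in ATlo, near the -0.21 and -0.15 of all 2344 peaks there.

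In intron 2 of Adgra2, an adhesion G protein-coupled receptor known from brain vessels, the level went from 143 in young to 63.4 in AThi and 67.2 in ATlo HSCs (chromosome 8, 27596291 to 27597586), a log2 change of -1.18 (SE 0.20) and -1.09 (SE 0.19) in the authors' deposited tables. Ubash3a encodes a suppressor of T cell receptor signalling. A peak in its intron 6 (chromosome 17, 31441949 to 31443395) fell from 203 to 99.1 and 114 (log2 -1.03, SE 0.18, for AThi and -0.83, SE 0.17, for ATlo per the authors' deposited tables). A distal peak of 2232 bp at Pisd, the mitochondrial phosphatidylserine decarboxylase, had the highest level among these, 727 in young, 374 in AThi and 378 in ATlo HSCs (chromosome 5, 32869600 to 32871831; log2 -0.96, SE 0.18, and -0.95, SE 0.18, in the authors' deposited tables). Pisd has near-identical pseudogene copies, and how reads that fit several copies were treated is not given, so this value is uncertain.

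Kif2c, a mitotic kinesin, had a distal peak 6.7 kb upstream on chromosome 4 (117046524 to 117047866), where implied levels were 259, 140 and 160 in young, AThi and ATlo HSCs. Its log2 change was -0.88 (SE 0.18) in AThi and -0.69 (SE 0.18) in ATlo in the authors' deposited tables, and the ATlo call was lost with the strongest promoters set to 0 (-0.38) and after centring on level (-0.50). In intron 3 of Ldlrad4, a negative regulator of TGF-β signalling, the peak fell in both fractions, with log2 -1.17 (SE 0.25) for AThi and -0.75 (SE 0.24, adjusted p = 0.0235) for ATlo per the authors' deposited tables. The ATlo call of Ldlrad4 was lost with the strongest promoters set to 0 (-0.43). The peak held by intron 3 of Mtss1 and assigned to Ndufb9 was at 199 in young, 117 in AThi and 155 in ATlo HSCs, and passed in AThi (log2 -0.77, SE 0.16, adjusted p = 0.000124) but not in ATlo (-0.36, SE 0.15, adjusted p = 0.127) per the authors' deposited tables.

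Distal peaks of Olfr1423, Otulinl and Dhrs2 were also lower in both old fractions, with log2 changes from -0.77 to -1.44 in AThi and from -0.65 to -1.24 in ATlo in the authors' deposited tables. Those named for ATlo alone were distal peaks of Mpzl1, Cfap126, Atp2a3, the calcium pump SERCA3, and Klrb1b, a natural killer cell receptor, and a peak in intron 3 of Sorcs2 assigned to Psapl1. They ranged from -0.75 to -0.64 in ATlo and from -0.70 to -0.37 in AThi in the authors' deposited tables, and each passed in both comparisons. The AThi call of Psapl1 was lost under all 3 other scalings (-0.33, -0.15 and -0.20), that of Klrb1b under both the promoter and the level setting (-0.26 and -0.31) and that of Mpzl1 with the strongest promoters set to 0 (-0.41). With the strongest promoters set to 0, the ATlo calls of Atp2a3 (-0.41), Otulinl (-0.34), Klrb1b (-0.33) and Psapl1 (-0.33) did not pass, nor did that of Klrb1b after centring on level (-0.39). The lowest log2 change of any broad peak, in intron 2 of Mapk4, rested on few reads (mean normalised count 20.24) and did not pass: -2.04 (SE 0.92, adjusted p = 0.152) in AThi in the authors' deposited table. Mapk4 was picked out after its values were seen.

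The assigned gene had a promoter peak within 1 kb of its start for 1579 of the 2155 broad peaks, and the promoter with the highest mean count was taken. Of the 118 such genes' promoters beside a broad peak called higher in old AThi HSCs, 19 were called higher, 5 lower and 94 neither. Beside broad peaks called lower there were 90 promoters, of which 7 were higher and 13 lower, and beside uncalled broad peaks 1371, of which 103 were higher and 73 lower. In old ATlo HSCs, 12 of 112 promoters beside a higher broad peak were higher and 10 lower, and 1 of 88 promoters beside a lower broad peak was higher and 15 lower. Beside the 1379 uncalled broad peaks, 72 promoters were higher and 117 lower. In both fractions most promoters beside a called broad peak were not called, which also held for promoter peaks in general. Of all 18102 peaks within 1 kb of a start, 7.33% were higher and 4.6% lower in AThi, and 5.75% and 6.87% in ATlo. Promoter calls in the direction of the broad peak were more frequent than these shares (19 of 118 and 13 of 90 in AThi, 12 of 112 and 15 of 88 in ATlo). Calls in the opposite direction lay above the shares in some groups and below in others. These differences were not tested. Across the 1579 pairs, Pearson's r between the change of the broad peak and that of the promoter was 0.163 in AThi and 0.18 in ATlo. This is a description over pairs that share libraries and, for genes with several broad peaks, promoters.

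Several genes had opposite calls at different broad peaks in old AThi HSCs: Elf2, Usp6nl and Zfp608, of 263 genes with 2 or more broad peaks (572 peaks). A further 26 of these genes had only higher calls, 27 only lower ones and 207 neither. In old ATlo HSCs no gene had calls in both directions, 27 had only higher and 24 only lower calls, and 212 had neither. At Elf2 on chromosome 3, the peak in intron 1 (51234042 to 51235540) rose from 90.5 in young to 147 in AThi and 171 in ATlo HSCs, with log2 changes of 0.70 (SE 0.17) and 0.91 (SE 0.16) in the authors' deposited tables. The peak 17.4 kb upstream of Elf2 (51265438 to 51267302) went from 166 to 105 in AThi and 140 in ATlo, a fall of 0.66 (SE 0.17, adjusted p = 0.00216) in AThi and a value of -0.25 (SE 0.16, adjusted p = 0.374) in ATlo in the authors' deposited tables. The peak 24.0 kb upstream of Elf2 did not pass in either comparison (-0.39, SE 0.17, and -0.20, SE 0.17). The upstream Elf2 call did not pass with the strongest promoters set to 0 (-0.44), and the Elf2 promoter was not called (-0.03, SE 0.14, and -0.13, SE 0.14).

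Usp6nl encodes an activator of Rab GTPase hydrolysis, and 4 broad peaks on chromosome 2 were assigned to it. The peak 42.4 kb upstream, in an intron of A230108P19Rik, fell from 84.8 in young to 44.5 in AThi (log2 -0.93, SE 0.24, adjusted p = 0.00216) and was at 60.3 in ATlo HSCs (-0.49, SE 0.22, adjusted p = 0.146) per the authors' deposited tables. The peak 125 kb downstream rose from 120 to 202 and 181 (0.75, SE 0.17, and 0.59, SE 0.17), as did the Usp6nl promoter in AThi (0.61, SE 0.16, adjusted p = 0.00281) in the same deposited tables of the authors. The other two peaks of Usp6nl did not pass. Of 4 broad peaks on chromosome 18 assigned to Zfp608, a zinc finger gene, that 22.8 kb upstream rose (0.93, SE 0.22, in AThi and 0.85, SE 0.22, in ATlo) and that 114 kb upstream fell in AThi (-0.51, SE 0.15, adjusted p = 0.00931) per the authors' deposited tables. The fall at 114 kb was not called with the strongest promoters set to 0 (-0.29) or after centring on level (-0.34).

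Other genes had 2 or more broad peaks called in the same direction. Gse1, a coiled-coil protein found in histone deacetylase complexes, had peaks 104.7 kb and 71.3 kb upstream that rose in AThi, at log2 0.83 (SE 0.14) and 0.40 (SE 0.13, adjusted p = 0.0272) per the authors' deposited table. In ATlo the peak at 71.3 kb did not pass (0.22, SE 0.13, adjusted p = 0.327). Another Gse1 peak, 12.2 kb upstream, did not pass in AThi (-0.39, SE 0.19) or ATlo (-0.15, SE 0.18). Plcl2, a phospholipase C-like protein, had a peak 70.6 kb downstream of its start that rose by 1.14 (SE 0.23) and another 92.8 kb upstream that rose by 0.53 (SE 0.18, adjusted p = 0.0352) in AThi per the authors' deposited tables. In ATlo the peak at 92.8 kb did not pass (0.44, SE 0.18, adjusted p = 0.0925). Another Plcl2 peak, 38.6 kb upstream, did not pass in AThi (-0.18, SE 0.15) or ATlo (-0.36, SE 0.15). Spring1, a regulator of cholesterol synthesis, had 3 broad peaks, of which 2 rose in AThi (log2 0.81, SE 0.25, and 0.53, SE 0.18, per the authors' deposited table). Chaserr, a long non-coding RNA next to the chromatin remodeller gene Chd2, had 3 broad peaks 36.2 to 59.4 kb upstream of its start on chromosome 7, and all 3 fell in AThi, with log2 changes of -0.52, -0.78 and -0.50 (SEs 0.15, 0.24 and 0.15) per the authors' deposited table. Their implied levels went from 437 to 305, from 117 to 68.1 and from 539 to 381. In ATlo the first and the last of these peaks passed (-0.58, SE 0.15, and -0.55, SE 0.15) and the middle one did not (-0.52, SE 0.23, adjusted p = 0.139) per the authors' deposited tables. With the strongest promoters set to 0, none of the 3 Chaserr peaks passed in AThi (-0.30, -0.56 and -0.28) and neither of the called ones in ATlo (-0.27 and -0.24). After centring on level the middle peak passed in AThi, and the first and last did not in AThi (-0.35 and -0.28) or ATlo (-0.33 and -0.25). The predicted genes C130026L21Rik and Gm32141 each had 2 lower peaks in AThi, none of which passed with the strongest promoters set to 0 (-0.34 to -0.22). In ATlo, Chaserr was the only gene with 2 calls in 1 direction as deposited. With the strongest promoters set to 0, Gse1 (1.005 and 0.531) and Plcl2 (1.361 and 0.754) each had 2 higher calls in ATlo. After centring on level Gse1 also had 2 (0.911 and 0.468).

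**Figure D4:**
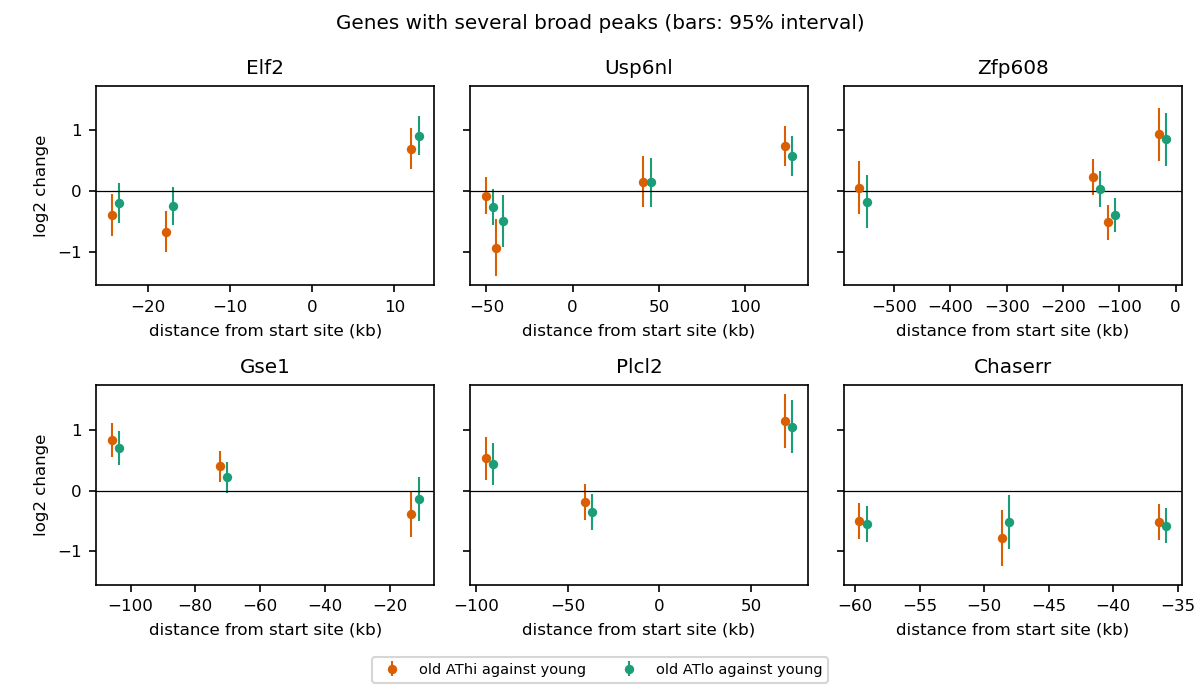
Log2 change against young HSCs (vertical axis, bars 95% intervals) of the broad non-promoter peaks assigned to 6 genes, by distance from the assigned start site in kb (horizontal axis, negative upstream; the orange AThi and green ATlo points of a peak are drawn slightly apart). In AThi, Elf2, Usp6nl and Zfp608 have a higher and a lower peak each, Gse1 and Plcl2 have 2 higher peaks, and the 3 peaks of Chaserr are all below 0.

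The gene with the most broad peaks was Mir582, a microRNA gene, with 6, all in intron 3 of Pde4d, a cAMP phosphodiesterase, on chromosome 13. Their implied levels in young HSCs ran from 62.2 to 148, their log2 changes in AThi from -0.31 to 0.37 and in ATlo from -0.19 to 0.07 in the authors' deposited tables, and none passed. Pag1, an adaptor that recruits the kinase Csk to the membrane, Usp6nl, Zfp608 and Nfia, a nuclear factor I gene, had 4 each. At Pag1 the peak 4.15 kb downstream of the start fell in AThi (log2 -0.45, SE 0.15, adjusted p = 0.0384, per the authors' deposited table) and was not called with the median of all peaks at 0 (-0.41) nor under the other scalings, and its other peaks did not pass. The identifier of Rnu6, a small nuclear RNA with many copies, also had 4 peaks, on different chromosomes, and is uncertain for that reason.

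Of 288 genes in 10 lists covering HSC regulators, ageing markers, autophagy, chromatin regulators and other marrow cells, 89 broad peaks were assigned to a listed gene or lay in its intron. In the list of HSC transcription factors, 14 of 32 genes had broad peaks, 22 in all, among them Runx1, Meis1, Erg, Lmo2, Mecom and Cbfa2t3. In AThi 1 of these peaks was higher and 2 lower, and in ATlo 3 were higher and 1 lower. Among all peaks, 7.42% were higher and 2.69% lower in AThi, and 6.75% and 2.49% in ATlo, so these small counts do not set the list apart. The list's median log2 change was -0.10 in AThi and -0.08 in ATlo, against -0.04 and -0.03 over all peaks, and turned positive with the strongest promoters set to 0 (0.13 and 0.23) and, in ATlo, after centring on level (0.10). Mecom encodes a zinc finger factor needed for HSC maintenance. A peak in its intron 1 on chromosome 3 (30300132 to 30301566) rose from 72.2 in young to 123 in AThi (log2 0.77, SE 0.20, adjusted p = 0.00226) and 115 in ATlo HSCs (0.67, SE 0.20, adjusted p = 0.0109), while the Mecom promoter was at -0.38 (SE 0.14, adjusted p = 0.0516) and fell in ATlo by 0.50 (SE 0.14) in the authors' deposited tables. The Mecom promoter, with a mean normalised count of 414, is among the strongest promoters. Their median change was -0.22 in AThi and -0.31 in ATlo, so its fall relative to them is smaller.

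Ets1, an ETS factor, had a peak in intron 3 with implied levels of 76.3 in young, 109 in AThi and 115 in ATlo HSCs: 0.59 (SE 0.18, adjusted p = 0.0199) in ATlo and 0.52 (SE 0.19, adjusted p = 0.0557) in AThi in the authors' deposited tables. For Ets1 the AThi value passed when the median of all peaks or of the strongest promoters was set to 0. Ikzf2, which encodes Helios, had a distal peak 172 kb downstream of its start that fell in AThi (103 to 55.9, log2 -0.88, SE 0.23, adjusted p = 0.00229) and was at 72.7 in ATlo (-0.50, SE 0.21, adjusted p = 0.118) per the authors' deposited tables. A peak in intron 2 of Runx1 on chromosome 16 (92618601 to 92619838), a gene needed for HSC formation, went from 397 to 281 and 304, or -0.50 (SE 0.14) and -0.39 (SE 0.13, adjusted p = 0.0464) per the authors' deposited tables. Both Runx1 calls were lost with the strongest promoters set to 0 (-0.28 and -0.07) and after centring on level (-0.33 and -0.14).

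Among HSC surface and signalling genes, 11 of 35 had broad peaks (15), of which 1 was higher and 1 lower in each comparison. Over all peaks, 7.42% were higher and 2.69% lower in AThi, and 6.75% and 2.49% in ATlo. The higher one lay in intron 1 of Slamf1, which encodes the HSC marker CD150 and also stands in the list of ageing markers: levels were 77.8, 123 and 138 (log2 0.66, SE 0.21, adjusted p = 0.0197, and 0.83, SE 0.20, adjusted p = 0.00125, per the authors' deposited tables). The lower ones were a peak in intron 4 of Smad3, a TGF-β signal transducer, assigned to Aagab, in AThi (-0.84, SE 0.23, adjusted p = 0.00419) and a peak 22 kb upstream of Cxcr4, the niche-homing receptor for CXCL12, in ATlo (-0.40, SE 0.13, adjusted p = 0.0344) per the authors' deposited tables. The Cxcr4 call was lost under all 3 other scalings (-0.37, -0.09 and -0.15). Broad peaks at Kit, Procr, Cd9 and Tgfbr2 did not pass in either comparison.

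Of the HSC ageing markers, 10 of 34 genes had a broad peak, 1 each. In AThi 3 were higher and 0 lower, where 7.42% and 2.69% of all peaks were called, and in ATlo 3 were higher and 1 lower, against 6.75% and 2.49%. The medians were 0.37 and 0.44, and stayed positive under the 3 other scalings (0.42 to 0.75). This list had been seen to rise in these libraries before, so its direction is no independent evidence. Besides Ehd3 and Slamf1, a peak 3.02 kb downstream of the start of Nupr1, a stress-response regulator, on chromosome 7 (126220181 to 126221623) rose from 268 to 466 in AThi and 467 in ATlo HSCs (log2 0.80, SE 0.15, in both, adjusted p = 1.21e-05 and 1.2e-05 in the authors' deposited tables). The peak in intron 6 of Vwf, von Willebrand factor, was at 316, 269 and 232 and passed as lower in ATlo (-0.45, SE 0.15, adjusted p = 0.0392) per the authors' deposited table. That Vwf call was lost under the 3 other scalings (-0.41, -0.13 and -0.20), and the Vwf promoter rose in AThi (log2 0.78, SE 0.27, adjusted p = 0.041) per the authors' deposited table. Peaks of Zfp521, Itgb3, Mllt3 and Ptger4 had positive values between 0.31 and 0.63 in AThi and did not pass. Those of Fyb2 (-0.76, SE 0.37, adjusted p = 0.203) and of F5, in an intron of Selp (-0.09), had negative values and did not pass either.

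**Figure D5:**
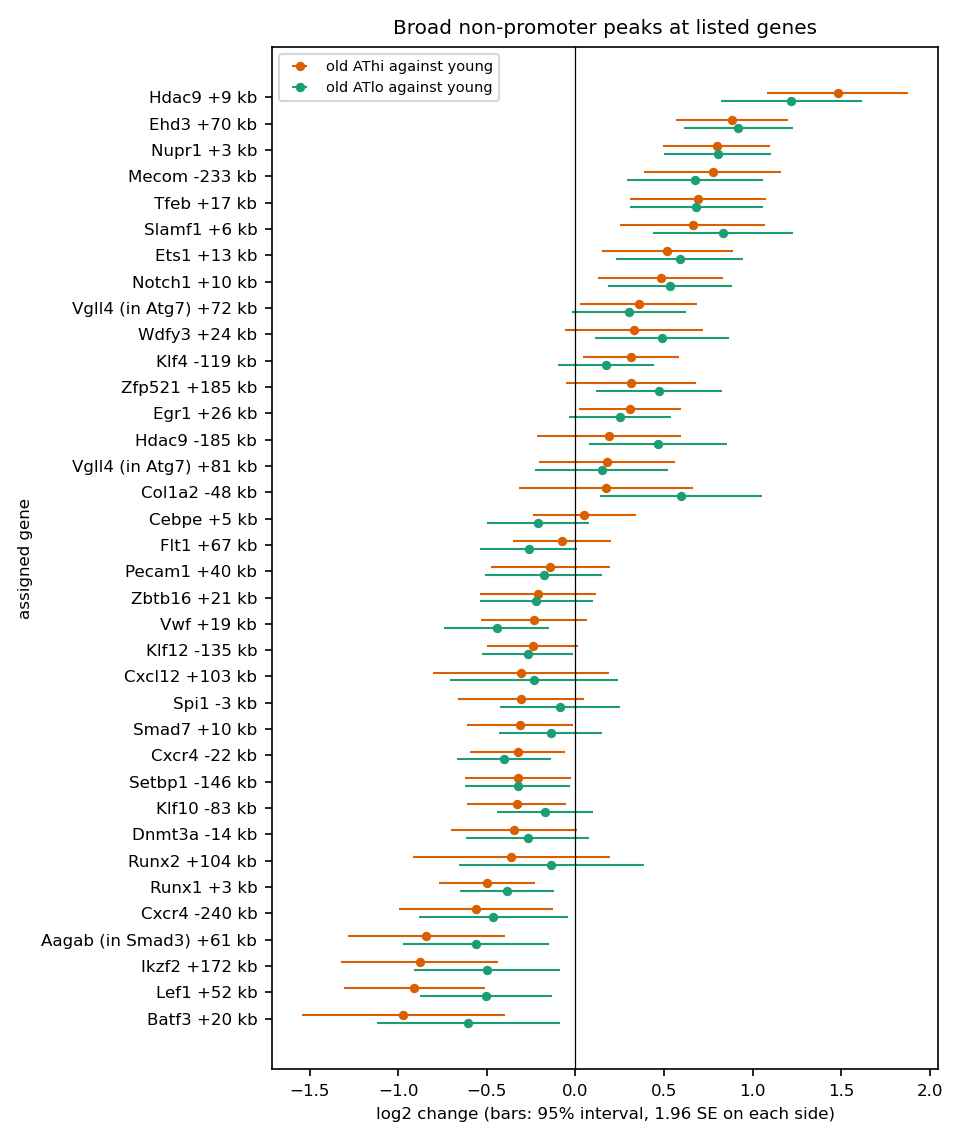
Log2 change against young HSCs (horizontal axis, bars 95% intervals) in old AThi (orange) and old ATlo HSCs (green) of broad non-promoter peaks from each list, up to 5 with the smallest p and fewer where a gene is not reported here, labelled by assigned gene, the gene whose intron holds the peak and distance from the start site in kb. The Hdac9 intron 2 peak (1.48 and 1.22) lies furthest to the right, and Batf3 (-0.97 and -0.61) furthest to the left.

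Few autophagy and lysosome genes had a broad non-promoter peak: 3 of 32, with 4 peaks. In each comparison 1 of the 4 was higher and 0 lower. Shares among all peaks were 7.42% and 2.69% in AThi, and 6.75% and 2.49% in ATlo. A peak 16.5 kb downstream of the start of Tfeb, the transcription factor that drives lysosome genes, on chromosome 17 (48113191 to 48114507) rose from 73.4 in young to 118 in both old fractions (AThi log2 0.69, SE 0.20, adjusted p = 0.00765; ATlo log2 0.68, SE 0.19, adjusted p = 0.00792; the authors' deposited tables). The Tfeb promoter fell, with log2 -0.44 (SE 0.15, adjusted p = 0.0378) for AThi and -0.43 (SE 0.15, adjusted p = 0.0418) for ATlo per the authors' deposited tables. With a mean normalised count of 450, this promoter is among the strongest ones, whose median change was -0.22 in AThi and -0.31 in ATlo. Relative to them its fall is smaller. The difference between AThi and ATlo at the Tfeb peak was 0.01 (SE 0.21, 95% interval -0.41 to 0.43) in the authors' deposited table. At Wdfy3, an adaptor of selective autophagy, 1 peak in intron 1, and in intron 19 of Atg7 2 peaks assigned to Vgll4, had log2 changes from 0.15 to 0.49 against young and did not pass.

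Chromatin and nucleosome regulators had 13 broad peaks at 9 of 30 genes, of which 2 were higher in AThi, that in intron 2 of Hdac9 among them, and 1 in ATlo, that in Hdac9. None was lower. The list's median log2 change was 0.11 in AThi and -0.01 in ATlo, and was positive under the 3 other scalings in both (0.02 to 0.34). At the low end of the list, the peaks of Dnmt3a, Tet2 and Setbp1 had values between -0.36 and -0.26 in both comparisons and did not pass. The AP-1, immediate early and KLF genes had 16 broad peaks at 14 of 31 genes. In AThi 1 of the 16 was called, as lower, and in ATlo 0, beside the same shares of all peaks as above. This peak, 20.2 kb downstream of Batf3, a basic leucine zipper factor, fell in AThi (49.8 to 25.4, log2 -0.97, SE 0.29, adjusted p = 0.0131). In ATlo it was at 32.8 (-0.61, SE 0.26, adjusted p = 0.138) per the authors' deposited tables. The Batf3 call was lost with the strongest promoters set to 0 (-0.75), where the list had 3 higher calls in AThi and 4 in ATlo. After centring on level the list had 2 higher calls and 1 lower in AThi, and 3 higher in ATlo. The Batf3 promoter rose in AThi (0.74, SE 0.20, adjusted p = 0.00389). Broad peaks of Jun, Egr1, Klf2, Klf4 and Btg2 did not pass as deposited.

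Markers of other marrow cells that a sort could hold were checked in the same way. Shares called among all peaks were 7.42% higher and 2.69% lower in AThi, and 6.75% and 2.49% in ATlo. Myeloid genes had 3 broad peaks at 3 of 22 genes (Spi1 and Cebpe among them), with none called and summed levels of 617 in young, 592 in AThi and 573 in ATlo HSCs. Lymphoid genes had 3 at 3 of 32 genes, and their summed levels were 454, 433 and 463. A peak in intron 9 of Lef1, a Wnt effector of lymphoid cells, fell in AThi (137 to 73.1, log2 -0.91, SE 0.20, adjusted p = 2.6e-04) and was at 96.7 in ATlo (-0.51, SE 0.19, adjusted p = 0.0691), and one in intron 2 of Notch1 rose in ATlo (161 to 233, log2 0.53, SE 0.18, adjusted p = 0.034) per the authors' deposited tables. Megakaryocyte and erythroid genes had 1 broad peak, that of Vwf, at 1 of 24 genes. Stromal and endothelial genes had 5 at 5 of 24 genes, none called, with summed levels of 635, 588 and 573. These lists had 15 (myeloid), 29 (lymphoid), 16 (megakaryocyte and erythroid) and 23 (stromal and endothelial) promoter peaks within 1 kb of a start. In AThi 3, 4, 1 and 3 of these were higher and 1, 0, 0 and 0 lower, where 7.33% of all 18102 such peaks were higher and 4.6% lower. In ATlo 1, 3, 0 and 3 were higher and 1, 0, 0 and 0 lower, where the shares over all promoter peaks were 5.75% and 6.87%. An open promoter does not show that a gene is expressed, and the part of other cells in the changes was not tested.

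Between old AThi and old ATlo HSCs, the comparison of high with low autophagy at the same age, 0 broad non-promoter peaks passed at an adjusted p under 0.05 in the authors' DESeq2 test, as did 0 (0.0%) of all peaks. At an unadjusted p under 0.05 there were 45 broad peaks (2.09%), against 1.78% of all peaks. The median difference over the broad peaks was 0.01 on the log2 scale, with a median SE of 0.202, and the 95% interval lay within a 2-fold difference in both directions for 2108 of them (97.8%), against 53.6% of all peaks. For narrower distal and intronic peaks with counts between the broad peaks' quartiles, that share was 99.3%. Differences smaller than 2-fold may have been missed. The titles number the old libraries 1 to 3 in each fraction, which may mark shared sources, and the labels do not say so. Whether the authors' fit paired them is not given in the sources used here, and a comparison without pairing may have missed differences within pairs.

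The smallest unadjusted p belonged to a distal peak 23.6 kb upstream of Mga, a partner of MAX, on chromosome 2 (119702711 to 119704130), at 115 in young, 138 in AThi and 92.1 in ATlo HSCs. AThi was higher than ATlo by 0.58 on the log2 scale (SE 0.19, 95% interval 0.21 to 0.95, unadjusted p = 0.00238), which did not pass after adjustment in the authors' deposited table. Peaks of Rreb1, a zinc finger factor (0.51, SE 0.20), Kdm7a, a histone demethylase (0.55, SE 0.22), Fasl, the ligand of the death receptor Fas (0.40, SE 0.16), and Adgre5, the adhesion receptor CD97 (0.52, SE 0.20), followed among those higher in AThi, and did not pass either, per the authors' deposited table. In the other direction were peaks in intron 1 of Jakmip1 (-0.50, SE 0.18) and in intron 1 of Prkcq (-0.48, SE 0.17), a kinase of T cell activation, distal peaks of Nup160 (-0.83, SE 0.33), a nuclear pore protein, and Elf2 (-0.42, SE 0.19), and the Mtss1 intron peak assigned to Ndufb9 (-0.41, SE 0.18), again without passing in the authors' deposited table. At the Jakmip1 peak the implied levels were 195 in young, 129 in AThi and 183 in ATlo HSCs, and at the Nup160 peak 50.3, 22.6 and 40.2. The peaks of Jakmip1, Nup160, Ndufb9 and Elf2 were called lower in AThi against young and not in ATlo against young, and the difference between the fractions, tested directly, did not pass at any of them.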

How the data were processed

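ATAC-seq libraries of mouse HSCs (5 young, 3 old AThi, 3 old ATlo) were transposed for 30 min at 37 °C, freed of fragments above 1000 bp and sequenced paired end with 150 bp reads, per the labels' protocols. Alignment with BWA, trimming with Trim Galore and cutadapt, peak calling with MACS2, counting with featureCounts, testing with DESeq2 and annotation with ChIPseeker are named, without settings, in the submitters' processing notes. For read shifting after transposition, duplicates and peak merging the method is not given in the sources used here, and these steps set how wide a peak is and whether it meets the rule. The width of a broad peak may also join neighbouring elements.

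The 3 deposited tables hold the authors' comparisons over the same peaks and 0 columns of values per library. The mean normalised count per peak is a signal value averaged over libraries by the authors. The authors' log2 fold changes, their SEs, the Wald statistics (a score) and the deposited p-values from DESeq2, raw and after Benjamini-Hochberg adjustment over all peaks, were taken unchanged. Both comparisons against young lack an adjusted value at 1831 peaks, 0 of them broad. The log2 changes of the 3 comparisons add up to within 1.02e-14.

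Group levels were computed from the mean count and the 2 fold changes against young and are approximate. Peak positions are 1-based and were taken as mm39, although the notes name GRCm38 as well. No genome of that build was used, so no sequence is printed. Symbols came from the RefSeq GRCm38.p6 table, which matched 20791 of 20810 gene identifiers and all of the broad peaks'. A peak carries the gene with the nearest start, which need not be the gene it acts on.

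Named peaks, predicted genes passed over, were the 10 higher and 10 lower calls with the smallest p in each comparison with young, 5 per direction between AThi and ATlo, again by p, the 5 widest, the 5 with most reads, the genes with most broad peaks and up to 5 per list. Further list members are named as examples, and some peaks that the rule picks are not reported here. The rule and the lists were chosen with earlier results of these data known. Alternatives changed the width minimum (1000 or 1500 bp), the adjusted p threshold (0.01 or 0.1), the fold, the scaling, the annotation class, the distance minimum (10 kb) and the chromosomes, kept 1 peak per gene, or centred changes in 50 bins of level. The recomputed adjusted p differed from the authors' by at most 2.12e-05. Scripts were tested on simulated data and run in Python 3.11.15 with pandas 2.3.3, numpy 2.4.6 and scipy 1.17.1.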

Additional observations from a re-analysis of the deposited data

How the results depend on the processing

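No called peak among those named changed direction under any setting. The share called higher in AThi, 7.19%, became 4.5% at an adjusted p under 0.01, 1.35% with at least a 2-fold change and 19.8% with the strongest promoters set to 0, and the share lower, 5.89%, became 2.78%, 0.325% and 1.48% under the same settings and 3.11% after centring on level. For ATlo, 6.68% higher became 3.86% at a width minimum of 1500 bp, 3.9% at 0.01, 0.974% at 2-fold and 28.3% with the strongest promoters set to 0. The 5.06% lower became 1.81% at 0.01, 8.12% at 0.1, 0.139% at 2-fold, 0.418% with the strongest promoters set to 0 and 1.25% after centring on level. The median log2 change became 0.20 in AThi and 0.28 in ATlo with the strongest promoters set to 0, by construction of that shift, and the medians, -0.03 in both comparisons, also turned positive with the median of all peaks set to 0 and after centring on level. The other settings moved these shares by less than 1.5 times. Among 333 values of single named peaks, 13 lost and 9 gained a call after centring on level, 6 and 5 with the median of all peaks set to 0, and 21 and 30 with the strongest promoters set to 0. No paired analysis was possible because the tables hold no values per library, and leaving out single libraries was not run for the same reason. Low counts limit precision at the 121 broad peaks with a mean normalised count under 50.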
